A study of Homo sapiens with 3 samples.

Results

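Geminin, encoded by GMNN, and its licensing partner CDT1 were followed through 3 RNA-sequencing libraries of MDA-MB-231, an established human triple-negative breast cancer cell line. These 2 genes were picked by name among 48162 genes in each library. Their Ensembl identifiers, ENSG00000112312 for GMNN and ENSG00000167513 for CDT1, were matched to symbols with GENCODE 29. Each group had 1 library: control cells, cells depleted of FoxO3, and cells with Geminin/FoxO3 co-depletion. All cultures grew in DMEM with 10% serum, met lentivirus for 24 h and were harvested 72 h after the change of medium. The sources used here do not give the depleting sequences, the control's vector or the meaning of the number that closes both depleted titles. No library was depleted of Geminin alone, so the loss of GMNN was seen only in cells that also lacked most of their FOXO3 transcript.

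Replication licensing loads the MCM helicase onto origins in G1, through the origin recognition complex, CDC6 and CDT1. Geminin binds CDT1 in S, G2 and early mitosis and so keeps replicated DNA from being licensed again. Proteolysis limits both proteins. SCF-SKP2 and CRL4-CDT2 remove CDT1 in S phase, and the anaphase-promoting complex removes Geminin at the end of mitosis. Both genes are known targets of E2F transcription factors, and in cells depleted of Geminin, CDT1 can relicense DNA and set off a DNA damage checkpoint. Geminin also binds chromatin regulators and FoxO3, the link that joins the pair of depletions in this study.

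The start regions of both genes are shown because E2F control is what they are known to share. RefSeq's promoter table (GRCh38.p14) gives 2 start windows for GMNN on the plus strand of chromosome 6 and 1 for CDT1 on the plus strand of chromosome 16. The GMNN stretches are chr6:24774687-24774930, before the first start, and chr6:24775245-24775412, before the second, both outside the untranslated regions of GENCODE 29. For CDT1, whose window lies in an untranslated region of GENCODE 29, only the 30 bases of chr16:88803747-88803776 are shown. Capitals mark E2F words and CCAAT boxes, read 5′ to 3′.
GMNN first start: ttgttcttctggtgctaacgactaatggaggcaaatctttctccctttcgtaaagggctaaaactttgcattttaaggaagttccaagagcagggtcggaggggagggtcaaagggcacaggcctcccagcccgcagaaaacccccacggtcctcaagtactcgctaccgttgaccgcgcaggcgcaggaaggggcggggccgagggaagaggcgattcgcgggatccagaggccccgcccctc
GMNN second start: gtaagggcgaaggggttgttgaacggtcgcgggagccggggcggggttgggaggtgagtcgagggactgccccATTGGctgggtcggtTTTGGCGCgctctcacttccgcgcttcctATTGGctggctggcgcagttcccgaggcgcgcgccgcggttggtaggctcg
CDT1: ggcgcccGCGGGAAATTTGGCGGgaaccgc

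An E2F word was TTT, then GG, CC, GC or CG, then CGC or CGG, on either strand, in the 250 bases before a start. It was found in 5.23% of 35116 start windows. GMNN had 1 match, TTTGGCGC, 80 bases before its second start, and 0 before its first. CDT1 had 2 abutting matches on opposite strands, GCGGGAAA 35 bases and TTTGGCGG 27 bases before its start. Among the origin licensing genes 7 of 13 with an entry held such a word, namely ORC3, CDC6, CDT1, GMNN, MCM3, MCM6 and MCM7, against 6.36% of all 27305 genes of the table. The CCAAT box (CCAAT or ATTGG), which NF-Y binds, occurred at 2 places before the second GMNN start and at 0 before CDT1, and in 32.01% of all windows. The forkhead word GTAAACA, of the kind FoxO factors bind, had 0 matches in the windows of either gene and occurred in 2.98% of all windows. The motif words were chosen with these sequences in view, and a match describes letters only.

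GMNN measured 112.3 FPKM in control cells, 112.2 after FoxO3 depletion and 37.0 after co-depletion. FPKM are fragments scaled to transcript length and library size, and these 3 levels rest on 1357, 1006 and 378 recovered reads. The control and the FoxO3 depletion were level, and the co-depleted library alone was low. Its GMNN level was 33.0% of the FoxO3-depleted level (95% counting interval 29.2% to 37.1%). Between the FoxO3 depletion and the control the GMNN ratio was 0.999 (0.920 to 1.09). Intervals of a ratio for 1 gene are exact (Clopper-Pearson, from the recovered reads). Counting error is all they cover, and with 1 library a group no difference has a replicate check or a p-value. In bulk RNA, fewer cells in the phases that make a transcript and less transcript per cell cannot be told apart.

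CDT1 measured 31.0 FPKM in control cells, 34.7 after FoxO3 depletion and 22.5 after co-depletion, from 681, 566 and 419 reads. The co-depleted library was thus the lowest for both genes. CDT1 was at 64.9% of its level in the FoxO3 depletion (57.1% to 73.8%) and at 72.8% of control (64.3% to 82.3%). In the FoxO3 depletion it was at 112.1% of control (100.1% to 125.5%), an interval whose lower end touches equality. The order of CDT1 levels was therefore FoxO3 depletion, control, co-depletion, with the first pair barely apart by counting error and the co-depletion clear of both. For GMNN the control and the FoxO3 depletion shared the top place.

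FOXO3 (ENSG00000118689), the gene depleted in both treated cultures, measured 12.2 FPKM in control cells, 2.79 after FoxO3 depletion and 2.94 after co-depletion. Between the depleted libraries its ratio was 1.06 (0.858 to 1.30), an interval that holds 1, so a FOXO3 difference between these libraries was not detectable at this depth.

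**Figure D1:**
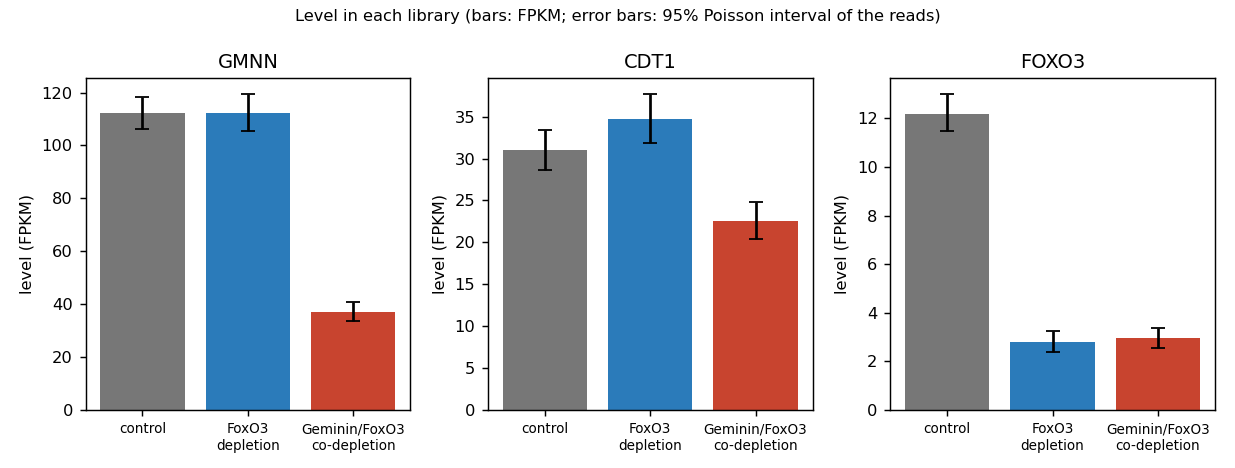
Level of GMNN, CDT1 and FOXO3 (y axis, FPKM, from 0) in each of the 3 libraries; bars are the FPKM of 1 library and error bars the 95% Poisson interval of its reads. GMNN is at 112.3, 112.2 and 37.0 FPKM and CDT1 at 31.0, 34.7 and 22.5, so both are lowest in the co-depletion.

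The co-depletion was compared with the FoxO3 depletion to see what differed where depletion of Geminin was added. With 1 culture per group, the loss of Geminin cannot be told apart from other differences between these cultures. Ratios between libraries were taken as log2 of FPKM + 1 over the 12649 genes with a name and a mean of at least 1 FPKM, where the median gene was at 0.03. GMNN was at -1.58, the third lowest of the 12649. The 2 genes below it, looked up after the values were seen, were the pseudogenes AC117490.1 and AC010525.2, which had at most 3.10 and 3.34 FPKM in any library. Among the 8186 genes with a mean of at least 10 FPKM, GMNN was the lowest of all. GMNN was the target of the added depletion, so its low rank follows from the design. At least 2-fold lower were 8 genes, or 0.0632%, and GMNN had the highest level of these in every library. CDT1, at -0.60, was the 73rd lowest of 12649, in the lowest 0.57%. At least 1.5-fold lower were 78 genes, or 0.617%, a group that CDT1 entered near its edge and would not enter at 2-fold. In the opposite direction 171 genes, 1.35%, were at least 1.5-fold higher and 0.126% at least 2-fold higher. After the GC adjustment 0.767% were at least 1.5-fold lower and 1.08% higher.

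**Figure D2:**
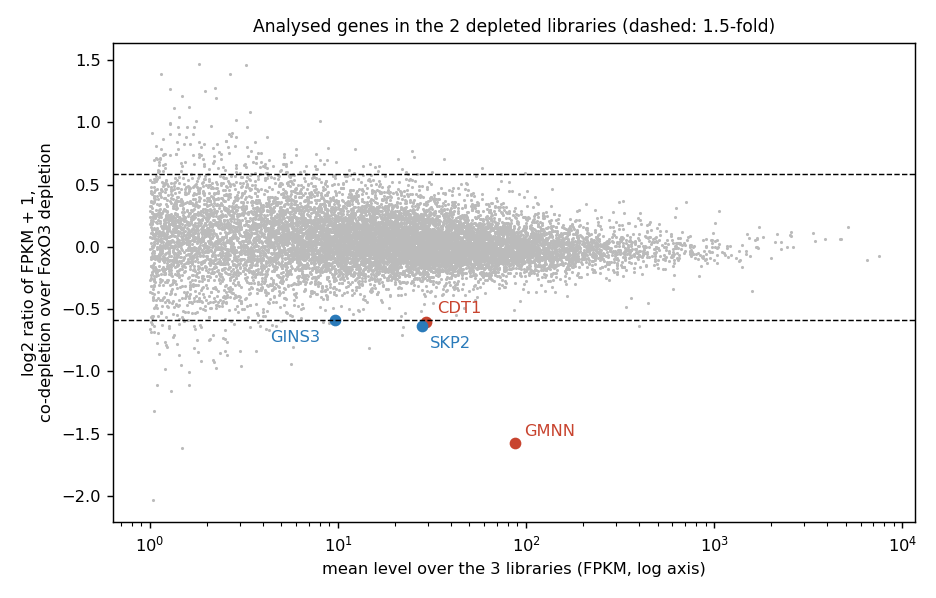
Log2 ratio of FPKM + 1, co-depletion over FoxO3 depletion (y axis), against the mean level over 3 libraries (x axis, FPKM, log axis) for the 12649 analysed genes, each a grey point; dashed lines mark 1.5-fold. GMNN, at -1.58, lies apart from every gene of its level, and CDT1 (-0.60), SKP2 (-0.63) and GINS3 (-0.59) lie at the lower dashed line.

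Against the control, the co-depletion placed GMNN at -1.58 and CDT1 at -0.44. GMNN was 18th lowest of 12649 here, where 12.3% of genes were at least 1.5-fold lower and 2.25% at least 2-fold lower, with 4.02% and 0.625% higher by these folds (6.2% lower and 4.62% higher at 1.5-fold after the GC adjustment). CDT1 did not reach 1.5-fold and was 2445th lowest, at percentile 19.32. Both comparisons use the co-depleted library and so are not separate evidence. In the FoxO3 depletion over control GMNN was at -0.00 (percentile 57.02) and CDT1 at 0.16 (percentile 72.42), while 16.7% of genes were at least 1.5-fold lower and 4% at least 1.5-fold higher (5.23% and 0.672% at 2-fold, 9.37% and 5.83% at 1.5-fold after the GC adjustment).

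Base composition moves with the ratios to control in these libraries, and the 2 genes lie at opposite ends of it. The transcripts of GMNN have a mean GC content of 41.4%, at percentile 13.0 of the analysed genes, and those of CDT1 65.8%, at percentile 98.0. In the FoxO3 depletion over control, the 253 genes nearest GMNN in GC (41.1% to 41.7%) had a median log2 ratio of -0.44, and 38.7% of them were at least 1.5-fold lower. GMNN, at -0.00, was above 216 of them, and its ratio adjusted for GC content was 0.44. In the co-depletion over control the median of the same 253 genes was -0.40, and the adjusted GMNN ratio was -1.18 in place of -1.58. The genes nearest CDT1 in GC (64.3% to 65.8%) had medians of -0.01 and 0.05 in these comparisons, and the adjusted CDT1 ratios were 0.17 and -0.49. Between the 2 depleted libraries the trend was flatter, with a median of 0.08 in both bins. There GMNN and CDT1 were each the lowest of the 253 genes of their own bin, and after adjustment they stood at -1.66 and -0.68, second and 52nd lowest of all.

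**Figure D3:**
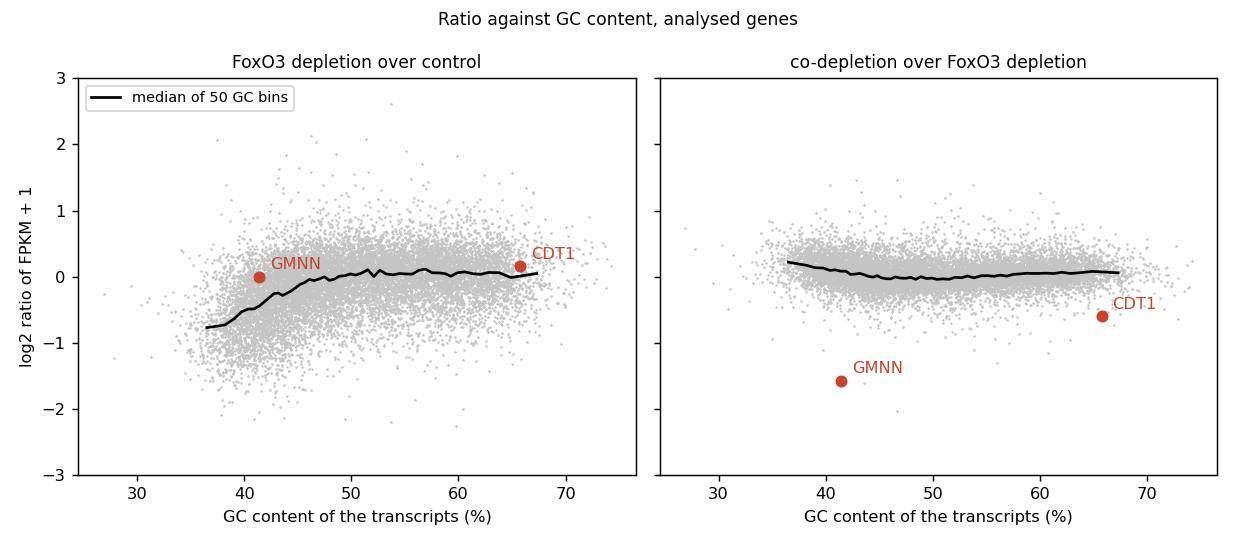
Log2 ratio of FPKM + 1 (y axis) against transcript GC content (x axis, %) for the analysed genes, in the FoxO3 depletion over control (left) and the co-depletion over the FoxO3 depletion (right); the black line is the median of 50 GC bins. On the left GMNN lies above its bin's median of -0.44 and on the right both GMNN and CDT1 lie below every gene of their bins.

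The transcript balance of inhibitor to target was lowest in the co-depletion, where GMNN was itself the transcript depleted. Per length of transcript, the ratio of GMNN to CDT1 was 3.62 in control cells, 3.23 after FoxO3 depletion and 1.64 after co-depletion. The lengths behind these FPKM, 833.0 bases for GMNN and 1515.0 for CDT1, affect each value but cancel between libraries. From the FoxO3 depletion to the co-depletion the balance changed by a factor of 0.508 (0.425 to 0.606, an exact interval of the odds ratio of reads). Because CDT1 was lower too, this factor is milder than the ratio of 0.330 for GMNN alone. From the control to the FoxO3 depletion the factor was 0.892 (0.775 to 1.03), an interval that holds 1. On the log2 scale this difference was -0.16, and it turned to 0.27 after adjustment for GC content, so its direction rests on that choice. The change from the FoxO3 depletion to the co-depletion was -0.97 before and -0.98 after the adjustment.

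The Geminin family has 2 further members, GMNC and MCIDAS, coiled-coil proteins of multiciliated cell differentiation. GMNC was at 0.0706, 0 and 0.0834 FPKM in the control, FoxO3 depletion and co-depletion, near the limit of detection. MCIDAS was at 2.54, 2.86 and 3.62 FPKM, and its ratio between the depleted libraries was 1.27 (0.853 to 1.90). Neither reached the level of GMNN in any library.

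GMNN and CDT1 were the 2 of 15 origin licensing genes at least 1.5-fold lower in the co-depletion than in the FoxO3 depletion, against 0.617% of all genes, and 0 were higher. GMNN was the depletion's own target, so its count carries no information. The other 13 had a median log2 ratio of -0.10, against 0.03 for all genes, and ranged from -0.23 to 0.46. The counting interval lay below 1 for 5 of the 13, above 1 for 1 and held 1 for 7. Over all analysed genes with recovered reads, 8.3% of intervals lay below 1 and 12.5% above 1. Intervals below 1 were also common among S/G2/M genes (10 of 16) and Geminin turnover genes (9 of 21). Intervals narrow as reads rise, and the shares of all genes were not matched for level. MCM3, at a ratio of 0.915, still had an interval below 1 (0.875 to 0.957). These interval counts therefore cannot be read as an excess of lower genes. Among the origin recognition subunits, ORC1, ORC2, ORC4, ORC5 and ORC6 had log2 ratios of -0.15, 0.09, 0.05, -0.10 and -0.22. The ORC4 interval is wide (0.429 to 2.56) because it rests on 11 and 13 recovered reads, at 17.7 and 18.4 FPKM. ORC2, at 12.7 and 13.6 FPKM, had 187 and 228. The ORC4 reads can be the true ones divided by a common factor. The width of the ORC4 interval may therefore come from the recovery. Its ratio was 1.04, and ORC2, with more reads and a ratio of 1.07, held 1 too (0.878 to 1.30). ORC3 was the one above 1, at 7.62 FPKM after FoxO3 depletion and 10.9 after co-depletion (ratio 1.43, 1.15 to 1.77), still under its 16.1 FPKM in the control. Its log2 ratio of 0.46 was 0.33 after adjustment for GC content. CDC6, the ATPase that works beside CDT1 in loading, was at 137.2 and 124.4 FPKM (ratio 0.907, 0.845 to 0.973). The CDC6 interval did not overlap that of CDT1 (0.571 to 0.738).

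The 6 subunits of the MCM helicase, which CDT1 carries to the origin, stayed within 1.5-fold. MCM2, MCM3, MCM4, MCM5 and MCM7 had log2 ratios of -0.04, -0.13, -0.08, -0.04 and -0.11. MCM6 had the lowest ratio, at 49.4 FPKM after FoxO3 depletion and 41.9 after co-depletion (0.848, 0.771 to 0.932). All 6 were below 0 on the log2 scale, as were 43.6% of all genes, and none of their intervals reached the CDT1 interval.

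Against the control, the counts of lower licensing genes showed no clear excess over the shares of all genes. In the FoxO3 depletion ORC2, ORC3 and ORC4 were at least 1.5-fold lower, at 12.7 against 23.3, 7.62 against 16.1 and 17.7 against 29.8 FPKM. That was 3 of 15, or 0 after adjustment for GC content, where the shares of all genes were 16.7% and 9.37%. CDC6 was at 118.6 FPKM in the control, and its ratio of 1.16 (1.08 to 1.24) was close to that of CDT1, 1.12. In the co-depletion GMNN, ORC2 and ORC4 passed 1.5-fold downward, or GMNN alone after adjustment, where 12.3% and 6.2% of all genes did. Without GMNN and CDT1 these were 2 of 13, or 0 after adjustment.

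**Figure D4:**
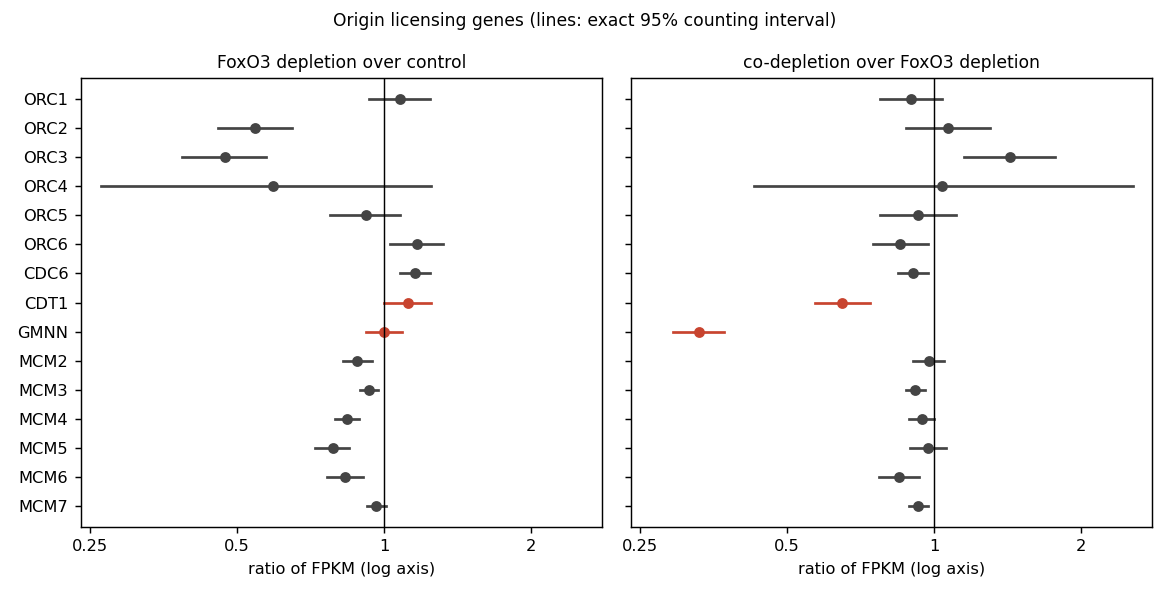
Ratio of FPKM (x axis, log axis) for the 15 origin licensing genes in the FoxO3 depletion over control (left) and the co-depletion over the FoxO3 depletion (right); points are ratios, lines exact 95% counting intervals, GMNN and CDT1 in red. On the right GMNN (0.330) and CDT1 (0.649) stand below 13 genes that run from 0.848 to 1.43.

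Of the 14 genes of CDT1 turnover, SKP2 alone was at least 1.5-fold lower in the co-depletion than in the FoxO3 depletion, and 0 were higher (median -0.04), against 0.617% lower and 1.35% higher among all genes. The same shares stand beside the counts of the lists that follow. SKP2 is the F-box subunit by which an SCF ubiquitin ligase recognises phosphorylated CDT1. It measured 34.3 FPKM in control cells, 30.6 after FoxO3 depletion and 19.4 after co-depletion, a ratio of 0.633 (0.549 to 0.728) between the depleted libraries. CDT1 and SKP2 were thus both lowest in the co-depletion, with overlapping intervals between the depleted libraries. Against the control they stood further apart, with SKP2 at 0.566 (0.496 to 0.644) and CDT1 at 0.728 (0.643 to 0.823) in the co-depletion, and at 0.894 (0.795 to 1.01) and 1.12 in the FoxO3 depletion. CKS1B, the small partner of SKP2, was at 304.5 and 276.3 FPKM (0.907, 0.859 to 0.959). DTL, the CDT2 subunit of the other CDT1 ligase, had a log2 ratio of -0.06 and PCNA, the clamp on which that ligase meets CDT1, one of -0.02. USP37, a deubiquitinase of CDT1, was at 5.15 and 5.91 FPKM (1.15, 0.908 to 1.45), and RBX1, the RING subunit of both ligases, was near 1 FPKM in all libraries (1.08, 0.921 and 1.08).

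Of the 21 genes of Geminin turnover 0 passed 1.5-fold in either direction between the depleted libraries (median -0.11). The kinase AURKA, known to protect Geminin in mitosis, was at 157.0 and 125.6 FPKM (0.800, 0.759 to 0.844). The anaphase-promoting complex subunits CDC23 and CDC26 were at 86.6 and 69.1 FPKM (0.798, 0.725 to 0.878) and at 30.5 and 25.1 FPKM (0.823, 0.688 to 0.984). FBXO5, which encodes EMI1, the inhibitor of that complex, was higher, at 11.9 FPKM after FoxO3 depletion and 15.1 after co-depletion (1.27, 1.09 to 1.48), with a control level of 22.3 FPKM. FBXO5 transcripts are low in GC (37.0%), and its log2 ratio of 0.32 was 0.10 after the adjustment.

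The licensing cofactors, 5 of 5 within 1.5-fold, included MCM9 at 3.84 and 4.59 FPKM (1.19, 0.908 to 1.58), and KAT7, an acetyltransferase that works with CDT1, at 33.1 and 28.9 FPKM (0.872, 0.773 to 0.984). MCMBP and LRWD1 had ratios of 0.909 (0.861 to 0.961) and 1.07 (0.959 to 1.20). Origin firing genes, which act after licensing, had 1 of 17 lower and 0 higher (median -0.04). That gene was GINS3, a subunit of the replicative helicase, at 9.66 FPKM after FoxO3 depletion and 6.08 after co-depletion (0.630, 0.474 to 0.833). Its log2 ratio of -0.59 became -0.55 after adjustment for GC content, short of 1.5-fold. GINS1 was at 57.6 and 49.1 FPKM (0.853, 0.736 to 0.990), and DONSON and WDHD1 had ratios of 1.22 (1.05 to 1.41) and 1.22 (1.07 to 1.40). WDHD1 was at 12.4 and 15.2 FPKM, both under its 31.1 FPKM in the control. Its log2 ratio between the depleted libraries went from 0.27 to 0.14 with the GC adjustment.

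E2F and pocket protein genes gave 0 of 13 past 1.5-fold (median -0.07), and E2F-driven G1/S genes 0 of 13 (median -0.05). The activator E2F1 was at 55.7, 61.3 and 56.4 FPKM in the control, FoxO3 depletion and co-depletion. RB1, the retinoblastoma repressor of E2F, reached 36.8 FPKM in the co-depletion, at a ratio of 1.23 (1.09 to 1.38), and E2F6, TFDP1 and RBL2 had ratios of 0.879, 0.909 and 0.907. RRM1, the large subunit of ribonucleotide reductase, was the lowest of the G1/S genes, at 136.3 and 106.2 FPKM (0.779, 0.70 to 0.868). RRM2, CDC25A and CCNE2 had ratios of 0.889, 0.863 and 1.19. CDT1, an E2F target itself, was lower than all 13 of these G1/S genes.

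Cell cycle markers are given beside CDT1 because both genes are made in a phase-dependent way. Of 16 S/G2/M genes 0 passed 1.5-fold between the depleted libraries, with a median of -0.15. BUB1B, CCNB2 and TOP2A had ratios of 0.797 (0.715 to 0.888), 0.815 (0.741 to 0.896) and 1.22 (1.14 to 1.30). The log2 ratio of TOP2A went from 0.28 to 0.11 with the GC adjustment. In the FoxO3 depletion over control the interval lay above 1 for 6 of the 16, below 1 for 6 and held 1 for 4. The larger changes there were downward. CDK1, TOP2A, MKI67, CENPF and KIF11, 5 of 16, were at least 1.5-fold lower and 0 were higher. The shares of all genes were 16.7% and 4%. After the GC adjustment 3 were lower and 0 higher, against 9.37% and 5.83%. Of 10 measured G1 cyclins and CDK inhibitors 0 passed 1.5-fold between the depleted libraries (median 0.06). CDK6 had a ratio of 1.23 (1.12 to 1.35), at 22.8 and 28.1 FPKM, both under its 47.5 FPKM in the control. CDKN2C was at 1.13 (1.03 to 1.23), CCND2 at 1.30 (0.902 to 1.88) and CDKN1A at 1.08 (0.971 to 1.20). CDKN2B was listed at 0 in all 3 libraries. The part of cell cycle phase in the levels of GMNN and CDT1 was not tested.

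Checkpoint genes that answer relicensing also gave 0 of 21 past 1.5-fold (median -0.08). ATM and ATR, the checkpoint kinases, were the highest, at 17.7 and 25.6 FPKM (1.44, 1.28 to 1.63) and at 5.64 and 8.24 FPKM (1.46, 1.18 to 1.81), both under their control levels (50.7 FPKM for ATM). The GC adjustment took the ATM log2 ratio from 0.51 to 0.37 and the ATR one from 0.48 to 0.34. RAD17, a clamp loader, was at 13.1 and 17.4 FPKM (1.33, 1.13 to 1.56), both under its 22.2 FPKM in the control. HUS1, a part of the clamp that RAD17 loads, had a ratio of 0.817 (0.680 to 0.981). Of 8 measured genes for transcription partners of Geminin 0 passed 1.5-fold (median 0.06). HDAC3, the deacetylase studied with Geminin and FoxO3, was at 77.6, 88.3 and 92.8 FPKM in the control, FoxO3 depletion and co-depletion. The Polycomb genes SUZ12, EED and EZH2 had ratios of 1.23 (1.11 to 1.37), 0.898 (0.762 to 1.06) and 0.907 (0.835 to 0.986). SUZ12 was at 19.7 and 24.3 FPKM, both under its 42.9 FPKM in the control. The GC adjustment took the log2 ratio of SUZ12 from 0.29 to 0.12 and that of EED from -0.15 to -0.32. SIX3 and SIX6, homeobox partners of Geminin in the eye, stayed under 1 FPKM.

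**Figure D5:**
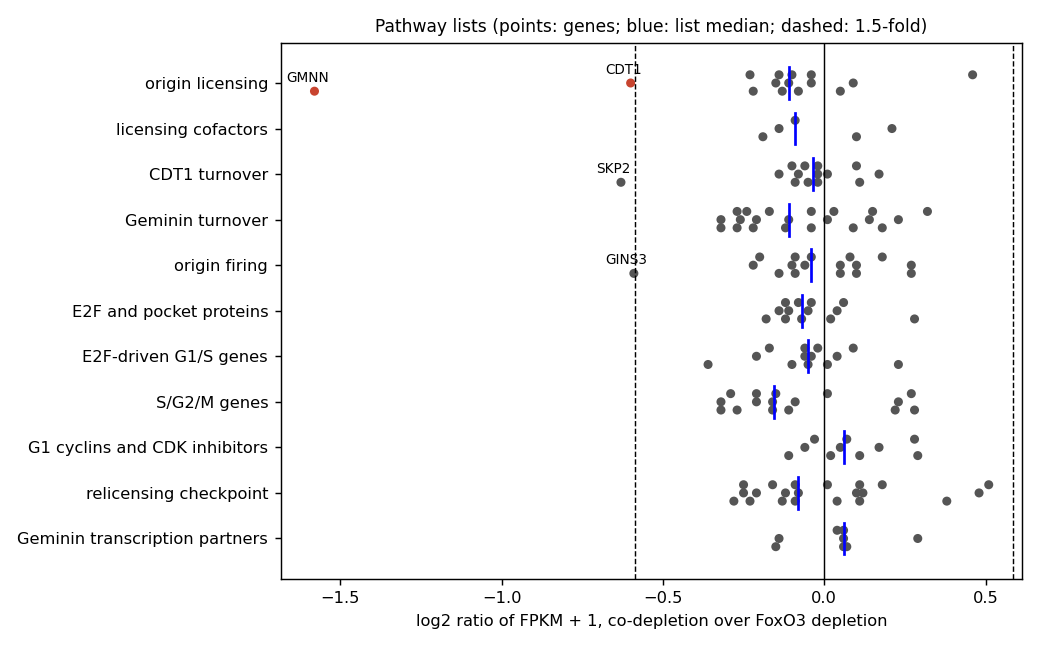
Log2 ratio of FPKM + 1, co-depletion over FoxO3 depletion (x axis), for the measured genes of 11 pathway lists (rows); points are genes, blue bars list medians and dashed lines 1.5-fold. GMNN, CDT1, SKP2 and GINS3 are the named points past the lower dashed line, and no gene of these lists passes the upper one.

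Genes of like pattern were sought by the distance between pairs of log2 ratios (FoxO3 depletion over control, and co-depletion over FoxO3 depletion) among the 8186 genes with a mean of at least 10 FPKM. No gene came within 0.2 of GMNN, whose own pattern was set by its depletion. The nearest was APAF1, the apoptosome scaffold, at a distance of 0.769 and at 16.7, 17.6 and 9.59 FPKM in the control, FoxO3 depletion and co-depletion. SMDT1, a subunit of the mitochondrial calcium uniporter, followed at 0.890, then SKP2 at 0.954, the unprocessed pseudogene AC103810.3 at 0.971 and CDT1 at 0.987. APAF1, SMDT1 and AC103810.3 were also the next 3 genes above GMNN by rank. CDT1 was thus the fifth nearest to GMNN, though far from it, since few genes were lower in the co-depletion alone.

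CDT1 had 11 genes within 0.2. The nearest was MED30, a Mediator subunit, at 0.074, with 35.4 FPKM after FoxO3 depletion and 22.9 after co-depletion. CHMP3, an ESCRT subunit, was at 0.097, GSTCD at 0.104, SLC25A30 at 0.115 and the pseudogene H3F3AP4 at 0.119. Likeness over 3 libraries says only that these levels lie in the same order and by like factors.

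In GENCODE 29, 0 genes overlap GMNN or CDT1. The gene after CDT1 is APRT, on the opposite strand and 80 bases away, so reads of one could reach the other if strand was not used in counting. APRT was at 88.5, 83.2 and 88.0 FPKM, with a ratio of 1.06 (0.944 to 1.19) between the depleted libraries, where CDT1 was at 0.649. The genes beside GMNN, AL133264.2 and ARMH2, were at 0 in all libraries and at or under 0.10 FPKM.

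Markers of the labelled line and of other cells were read in all libraries. VIM, CD44 and AXL were at 480 to 935 FPKM, ESR1 and PGR at or under 0.119 FPKM and CDH1 at or under 1.02. Of the leukocyte, endothelial and fibroblast markers PTPRC, CD3E, CDH5, COL3A1 and DCN, none was above 0.191 FPKM. Recovered totals ran from 10760613 reads (FoxO3 depletion) to 14507410 (control), with 12267332 in the co-depletion.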

How the data were processed

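RNA was sequenced from 3 MDA-MB-231 cultures, 1 per group. The authors deposited FPKM per Ensembl gene, and TopHat2 2.0.9 is named in the submitters' processing notes. The sources used here do not give the counting tool, genome build or use of strand. GENCODE 29 supplied names, GC content and lengths of transcripts. Library totals and whole reads were recovered from the steps of the FPKM, at a relative tolerance of 1e-08, for 97.2% of 20591 genes above 0 in at least 2 libraries. For some genes these reads can be the true ones divided by a common factor, which widens their intervals. No count test was run, since groups of 1 leave no residual degrees of freedom. From the deposited FPKM, log2 ratios were computed with a pseudocount of 1, which understates the change of low genes, over 12649 genes with a mean of at least 1 FPKM. Changes of 1.5-fold were counted. The 95% intervals (Clopper-Pearson for a ratio, the conditional odds ratio for the balance of GMNN to CDT1, Poisson for a level) cover counting error only. The GC adjustment ranks genes by GC content, cuts them into 50 bins and subtracts the median of each gene's own bin. Alternatives were other pseudocounts, scalings, minimums and folds. Scripts were tested on simulated data and used Python 3.11.15, numpy 2.4.6, pandas 2.3.3, scipy 1.17.1 and matplotlib 3.10.9. Genes were named by rule: GMNN, CDT1 and FOXO3, all origin licensing and Geminin family genes, up to 4 of each other list with the largest ratio between the depleted libraries, the 5 genes most like each member, those next to GMNN by rank and genome neighbours. Further list genes (DTL, PCNA, E2F1, RBL2, CDKN1A, HDAC3, SIX3, SIX6 and some others named beside these) were added after their values were seen. Members and lists were chosen with earlier results of these data known.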

Additional observations from a re-analysis of the deposited data

How the results depend on the processing

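No ratio past 1.5-fold and no count turned its direction. The GMNN minus CDT1 difference in the FoxO3 depletion over control, which was under 1.5-fold, changed sign with the GC adjustment, from -0.16 to 0.27. Of 45 alternatives for the log2 ratios of GMNN, CDT1 and their difference, 41 stayed within the counting interval. The other 4 came from the GC adjustment, which gave GMNN -1.18 in the co-depletion over control and 0.44 in the FoxO3 depletion over control, and GMNN minus CDT1 -0.69 in the co-depletion over control, beside the 0.27 above. The cause was not tested. Lower origin licensing genes numbered 1 at 2-fold between the depleted libraries, 1 with the GC adjustment and 1 at 2-fold in the co-depletion over control, and 0 and 0 in the FoxO3 depletion over control.

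Between the depleted libraries, all genes called higher and lower numbered 451 and 207 with a pseudocount of 0.1, 312 and 130 with 0.5, 45 and 14 with a mean of at least 5 FPKM, 384 and 232 with no minimum, and 16 and 8 at 2-fold. In the co-depletion over control, 784 were lower with the GC adjustment, and 79 were higher and 285 lower at 2-fold. In the FoxO3 depletion over control, 1185 were lower with the GC adjustment, and 85 were higher and 661 lower at 2-fold. The other scalings placed the median of all genes between -0.11 and 0.03.

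No paired analysis was possible because each group holds 1 library. Leaving out a replicate leaves a group empty. Low genes such as GMNC rest on 1 read or none, and their differences were not detectable at this depth.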
